A study of Saccharomyces cerevisiae with 26 samples.

Results

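The 10 genes described here encode late enzymes of ergosterol synthesis and the fatty acid desaturase of budding yeast. They are ERG1 (YGR175C), ERG2 (YMR202W), ERG3 (YLR056W), ERG4 (YGL012W), ERG5 (YMR015C), ERG6 (YML008C), ERG11 (YHR007C), ERG24 (YNL280C), ERG25 (YGR060W) and OLE1 (YGL055W), taken by identifier from the 6692 open reading frames counted, and they were divided by cofactor. ERG3, ERG5, ERG11, ERG25 and OLE1 encode enzymes that need iron or heme, and ERG1, ERG2, ERG4, ERG6 and ERG24 encode the 5 others. The study put a cysteine at position 110 of histone H3 in a yeast whose own residue there is alanine, and grew the strains in SC, a synthetic medium with glucose, or in SCEG, which has ethanol and glycerol in its place and requires respiration. Messenger RNA was sequenced from 26 libraries in 8 groups. WT and H3A110C were grown in both media, with 3 libraries each. The strains gsh1Δ and H3A110Cgsh1Δ (3 libraries each) and cup1F8* and H3A110Ccup1F8* (4 each) were grown in SCEG. H3A110C carries the substitution in both chromosomal H3 genes, gsh1Δ lacks the enzyme of the first step of glutathione synthesis, and cup1F8* has a stop codon in the repeated CUP1 genes for copper metallothionein. All strains derive from the S288C laboratory background. The study describes both gsh1Δ and H3A110Cgsh1Δ as unable to grow in SCEG without added glutathione, and H3A110Cgsh1Δ as needing less of it. The labels do not say whether the cultures for RNA contained glutathione.

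Ergosterol is the main sterol of fungal membranes and takes the place that cholesterol has in animals. Its synthesis runs from acetyl-CoA through mevalonate to squalene, and the oxygen-using steps start when ERG1 makes squalene epoxide. ERG11 (a cytochrome P450) and ERG25 (a non-heme iron oxidase) strip methyl groups from the sterol, ERG3 (an iron desaturase) and ERG5 (a second P450) add double bonds, and ERG24, ERG6, ERG2 and ERG4 reduce, methylate or rearrange the ring system and side chain. OLE1 introduces the double bond of the monounsaturated fatty acids and needs iron and cytochrome b5. Several of these enzymes use oxygen, iron or heme. Genes of the pathway are known to respond to sterol, iron and oxygen supply, through the regulators UPC2 and ECM22 for sterol genes and MGA2 and SPT23 for OLE1.

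The cofactor division can be read in the coding sequences. Histidine boxes hold the iron of membrane desaturases and oxidases, and the search was for a histidine, any 2 residues and 2 further histidines. ERG3, ERG25 and OLE1 each held this pattern at 2 places, against 1.58% of 6008 annotated proteins that held it at least once. The heme-binding loop of cytochromes P450, in which a cysteine holds the heme iron, was searched as a phenylalanine, a glycine, the cysteine and a further glycine at their usual spacing and was found in ERG5 and ERG11 and in 0.133% of proteins. None of the 5 other members held either pattern. The stretches below are shown because they mark the residues that set the iron and heme enzymes apart. They run 5′ to 3′ on the coding strand of the RefSeq R64 assembly, with the codons of the 3 histidines or of the heme cysteine in capitals. The boxes are numbered by their order among matches of the histidine pattern, and histidine boxes of other spacing were not searched.
ERG3, first box (chrXII:254482-254526, plus strand): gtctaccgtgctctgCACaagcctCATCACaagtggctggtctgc
ERG3, second box (chrXII:254707-254751, plus strand): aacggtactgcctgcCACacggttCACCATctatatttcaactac
ERG25, first box (chrVII:611065-611109, plus strand): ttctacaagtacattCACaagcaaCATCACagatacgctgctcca
ERG25, second box (chrVII:611320-611364, plus strand): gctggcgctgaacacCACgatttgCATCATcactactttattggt
OLE1, first box (chrVII:399204-399248, plus strand): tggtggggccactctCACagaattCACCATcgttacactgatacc
OLE1, second box (chrVII:399615-399659, plus strand): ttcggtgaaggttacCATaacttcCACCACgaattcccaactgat
ERG5, heme loop (chrXIII:301037-301096, minus strand): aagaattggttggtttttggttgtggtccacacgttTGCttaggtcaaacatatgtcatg
ERG11, heme loop (chrVIII:120253-120312, minus strand): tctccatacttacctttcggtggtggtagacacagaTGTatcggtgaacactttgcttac

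The sterol regulators UPC2 and ECM22 are known to bind the letters TCGTATA. In the 500 bases before the start codon, read on both strands, 5 of the 10 members held these letters, against 6.99% of 6006 genes. The 5 were ERG1, ERG2 and ERG6 with 1 match each and ERG3 and ERG25 with 2 each. With the fifth letter left free (TCGTNTA, which includes the first pattern), 8 of 10 members matched, against 21.7% of genes, and ERG11 and OLE1 did not. OLE1 was the only member with ACTCAACAA, the letters of its low oxygen element, which 0.383% of genes held. The spaced pair of triplets bound by the heme-responsive HAP1 was found in no member and in 0.350% of genes. A match is a description of the letters and not evidence of binding. The stretches are shown to place these letters in the members that hold them. Matches are in capitals, in either orientation, on the strand of the gene.
ERG3 (chrXII:253515-253601, plus strand): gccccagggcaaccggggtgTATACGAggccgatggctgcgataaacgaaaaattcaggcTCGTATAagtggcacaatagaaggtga
ERG25 (chrVII:610064-610127, plus strand): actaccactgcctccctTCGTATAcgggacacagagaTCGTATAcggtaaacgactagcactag
ERG1 (chrVII:848779-848825, minus strand): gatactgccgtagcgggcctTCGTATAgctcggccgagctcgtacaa
ERG2 (chrXIII:667332-667378, plus strand): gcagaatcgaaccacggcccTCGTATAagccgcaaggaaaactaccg
ERG6 (chrXIII:253396-253442, minus strand): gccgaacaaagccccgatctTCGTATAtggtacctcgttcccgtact
OLE1 (chrVII:398265-398313, plus strand): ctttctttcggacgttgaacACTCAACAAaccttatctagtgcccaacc

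The count totals of the libraries ran from 2917138 to 12305863, and every member had at least 379 counts in every library. Each member has 1 coding exon, overlaps no other coding sequence and had no 50-base window that recurs in the genome. Levels below are CPM (counts relative to library size) on 1 common scale (TMM normalization) over the 26 libraries. They are shares of a library's messenger RNA, so that a lower share cannot be told apart from a rise of other transcripts. Nor do they show the total messenger RNA per cell. GSH1 had 0 counts in the gsh1Δ strains. CUP1-1 and CUP1-2 were listed at 0 in all SCEG libraries, WT included, and thus do not check the cup1F8* label. The libraries of column letter B in SC (1 per strain) and replicate 2 of H3A110Cgsh1Δ stood apart from the rest of their groups, with chi-square values per gene from 104 upward in SC and from 23.1 upward in H3A110Cgsh1Δ, against 9.94 and 5.75 at most between the remaining libraries of those groups. Calls of members, list counts and changes of the class distance that include these libraries are also given without them. The columns of SC carry letters and those of SCEG carry numbers. Some final S numbers of the SCEG labels occur both with and without cup1F8*. No label names a sequencing set. If such sets differed, the medium and the cup1F8* strains could not be told apart from them in those comparisons.

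Per kilobase of coding sequence, OLE1 was the highest member in 7 of the 8 groups, with 1760 ± 211 CPM per kilobase (SD, n = 3) in WT in SCEG. ERG3 followed with 814 ± 28.8, and it was first in gsh1Δ, where its range overlapped that of OLE1. ERG6, ERG25, ERG11, ERG1 and ERG4 lay between 468 and 351 CPM per kilobase in WT in SCEG, each overlapping the next. ERG2 was below them at 280 ± 7.66. ERG24 and ERG5 were the lowest in all 8 groups, with 86.7 ± 3.39 and 80.9 ± 16.3 in WT in SCEG, and their ranges overlapped there. Over all libraries, ERG3 varied most, 5.66-fold between its lowest and highest library, and ERG5 least, 2.05-fold.

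**Figure D1:**
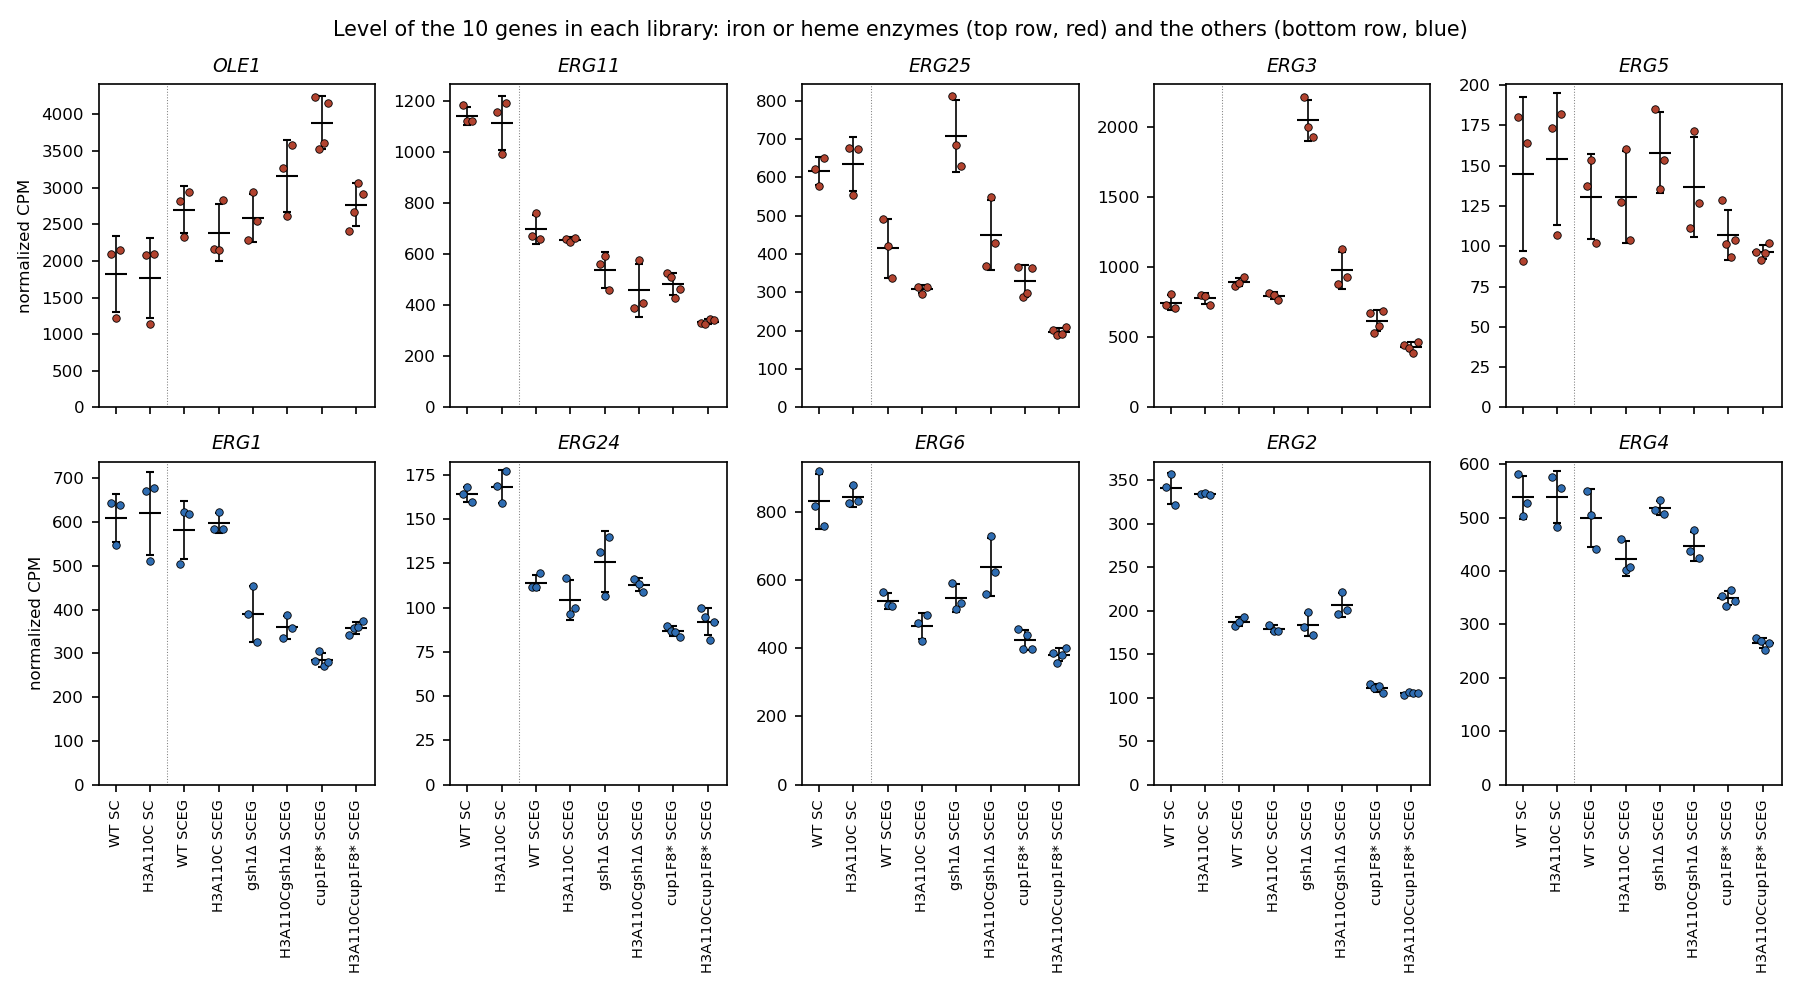
Normalized CPM (vertical axis, starting at 0) of each gene in every library, by strain and medium, with iron or heme enzymes in red and the other members in blue. Points are libraries and bars the mean and SD. The 3 gsh1Δ libraries of ERG3 lie between 1930 and 2210 CPM and all other libraries of ERG3 at or below 1127.

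In SCEG compared with SC, most members that changed in WT fell, while ERG3 rose. Of the 10 members, 5 were lower and 1 higher in WT (edgeR's quasi-likelihood test, Benjamini-Hochberg adjusted p below 0.05), where 25.3% of 5816 genes tested were called lower and 25.6% higher. ERG2, the sterol isomerase, had 342, 357 and 322 CPM in SC and 182, 187 and 193 in SCEG. The groups were far apart, and the log2 fold change was -0.81 (SE, the standard error, 0.082, adjusted p = 0.00033 from edgeR). ERG11, the P450 demethylase, had 1186, 1125 and 1123 CPM in SC and 671, 764 and 660 in SCEG, a log2 difference of -0.66 (SE 0.093, adjusted p = 0.0013). ERG6, ERG24 and ERG25 also fell, by 0.57, 0.47 and 0.52 on the log2 scale. ERG3 had 726, 809 and 707 CPM in SC and 864, 890 and 927 in SCEG, without overlap, and a log2 difference of 0.31 (SE 0.088, adjusted p = 0.023). ERG1 (-0.02), ERG4 (-0.06) and ERG5 (-0.09) overlapped between the media and were not called. The call of ERG3 was lost in 4 of the 6 fits that left out a library (adjusted p up to 0.087) and that of ERG25 in 3 (up to 0.062).

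OLE1 had 2091, 1223 and 2149 CPM in SC and 2817, 2332 and 2944 in SCEG. The low SC value is the library of letter B, in which ERG5 was also low (90.6 CPM against 180 and 164). The log2 fold change of OLE1 was 0.62 (SE 0.22, adjusted p = 0.053), and without the letter B library it was 0.39 with an adjusted p of 0.021. Without that library 7 members were called in WT, where 65.3% of genes were. In H3A110C the same 5 genes as in WT were lower in SCEG (23.4% of 5795 genes tested were), with ERG25 falling most, from between 553 and 676 CPM to between 296 and 315. Its log2 fold change was -0.98 (SE 0.11, adjusted p = 0.00053). ERG2 fell by 0.83, ERG6 by 0.80, ERG11 by 0.70 and ERG24 by 0.63. ERG3 was not called in H3A110C (0.10, SE 0.086, adjusted p = 0.38), nor were OLE1 (0.50, adjusted p = 0.15), ERG4 (-0.28), ERG5 (-0.17) and ERG1 (0.01). Without the letter B library, 7 members were called in H3A110C, where 65.7% of genes were, with ERG4 (-0.36) and ERG5 (-0.38) also lower. When libraries were scaled by total counts only, the median of all genes moved to 0.20 in WT and 0.22 in H3A110C, and the calls moved from 1487 higher and 1471 lower to 2000 and 966 in WT and from 1381 and 1354 to 1948 and 838 in H3A110C. ERG25 in WT then lost its call (-0.32, adjusted p = 0.10), while OLE1 in WT (0.81) and ERG3 in H3A110C (0.31) gained one.

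Most other genes of the sterol pathway that changed with the medium were lower in SCEG. Of 11 genes of the mevalonate and early sterol steps, 9 were lower in WT and none higher, with a median log2 fold change of -0.39 against 0.00 over all genes tested. HMG1 and HMG2, the reductases that make mevalonate, fell by 0.99 and 0.83, and IDI1, an isomerase of the pathway, by 0.54. Of the 4 other late sterol genes, ERG27, the sterol ketone reductase (-1.27), and ERG28, a scaffold of the late enzymes (-1.48), were lower. Of 5 electron donors and heme carriers, 3 were lower, among them NCP1, the reductase that passes electrons to ERG1, ERG5 and ERG11 (-0.48, adjusted p = 0.0025), and CYB5, cytochrome b5 (-0.95), and MCR1, a cytochrome b5 reductase, was higher (1.98). Of 12 regulators, 2 were higher and 2 lower. ROX1, a repressor of low oxygen genes (1.91), and HAP1, a heme-responsive activator whose S288C allele carries a transposon insertion (0.35, adjusted p = 0.012), were higher, and NSG1, which stabilizes HMG2 (-0.85), and UPC2 (-0.53, adjusted p = 0.0058) were lower. ECM22, MGA2 and SPT23 were not called in either strain with all libraries.

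Of the 11 genes of sterol uptake, esters and export, 6 were lower and 2 higher in WT, among them ATF2, an acetyltransferase (-3.28), ARE1, which esterifies sterols (-1.47), and PDR11, a sterol importer (1.41). Of 9 fatty acid genes, 4 were lower and 2 higher. ACC1, which commits acetyl-CoA to fatty acids, was higher by 1.04, and ACB1, an acyl-CoA binding protein (-1.01), and ELO3, an elongase (-0.90), were lower. Of 8 heme and oxygen response genes tested, 5 were lower and 1 higher, with CYC1, the aerobic cytochrome c, at 2.92, COX5B, a subunit used in low oxygen, at -2.81 and TIR1, a cell wall protein of low oxygen, at -1.595. HMG2 is counted both in this list and in that of the early sterol genes, here and below. In H3A110C the counts were 9 of 11 early genes lower, 2 of 4 late genes lower, 1 higher and 3 lower of 5 donors, 2 and 2 of 12 regulators, 1 and 6 of 11 uptake genes, 1 and 3 of 9 fatty acid genes and 1 and 6 of 8 heme and oxygen genes. The genes with the largest changes there were HMG1 (-1.03), HMG2 (-0.85) and ERG9, squalene synthase (-0.60), ERG27 (-1.27) and ERG28 (-1.12), MCR1 (1.78), CYB5 (-1.04) and NCP1 (-0.49). Of the regulators, ROX1 (1.85) and HAP1 (0.25, adjusted p = 0.045) were higher and UPC2 (-0.89) and NSG1 (-0.75) lower. ATF2 (-3.38), ARE1 (-1.48) and ACB1 (-1.07) were lower again, as were ELO3 (-0.91), COX5B (-3.03) and ANB1, a translation factor of low oxygen (-4.41), and PDR11 (1.396), ACC1 (0.93) and CYC1 (2.93) were higher. These lists are described by counts and medians only.

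Without the letter B library, the counts for WT were 10 of 11 early genes lower, 2 of 4 late genes lower, 1 higher and 3 lower of 5 donors, 3 and 4 of 12 regulators, 2 and 7 of 11 uptake genes, 3 and 4 of 9 fatty acid genes and 2 and 5 of 7 heme and oxygen genes. MGA2 was then called in WT (-0.34, adjusted p = 0.0054). For H3A110C they were 11 of 11 early genes lower, 2 of 4 late genes lower, 1 and 3 of 5 donors, 2 and 4 of 12 regulators, 2 and 7 of 11 uptake genes, 2 and 5 of 9 fatty acid genes and 1 and 5 of 7 heme and oxygen genes.

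No member was called between H3A110C and WT in either medium. In SC none was called (0.0174% of 5737 genes tested were), none reached an unadjusted p below 0.05 (0.418% of genes did), and DESeq2 also called none, nor did edgeR call any without the letter B libraries. The log2 fold changes in SC were 0.07 for ERG3, 0.09 for ERG5, -0.03 for ERG11, 0.05 for ERG25 and -0.04 for OLE1, and 0.03 for ERG1, -0.02 for ERG2, 0.01 for ERG4, 0.04 for ERG6 and 0.05 for ERG24. Their 95% intervals reached from -0.22 to 0.16 for ERG11 and from -0.77 to 0.70 for OLE1 in the fit without pairs. With the column letters as a block, OLE1 was at -0.04 with an SE of 0.070, and ERG11 at -0.03 with an SE of 0.070. In SCEG, no member was called in edgeR or DESeq2 (0.0353% of 5671 genes tested were in edgeR), and ERG25, ERG4 and ERG6 were lower at an unadjusted p below 0.05, which 3.42% of genes were. ERG25, the methyl sterol oxidase, had 490, 420 and 337 CPM in WT and 315, 296 and 314 in H3A110C. The groups did not overlap, and the log2 fold change was -0.43 (SE 0.12, adjusted p = 0.54). With the replicate numbers as a block, ERG25 was called (-0.41, adjusted p = 0.040), where 1.73% of 5671 genes were, but the numbers of the SCEG libraries were not taken as pairs. ERG3 had 864, 890 and 927 CPM in WT and 817, 801 and 766 in H3A110C, again without overlap, with a log2 difference of -0.17 (SE 0.074, adjusted p = 0.84). ERG4 (-0.24), ERG6 (-0.21), OLE1 (-0.18), ERG24 (-0.13), ERG11 (-0.08), ERG2 (-0.06), ERG5 (-0.003) and ERG1 (0.04) were not called. None of the genes in the 7 pathway lists was called between H3A110C and WT in either medium, nor was any in SC without the letter B libraries.

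**Figure D2:**
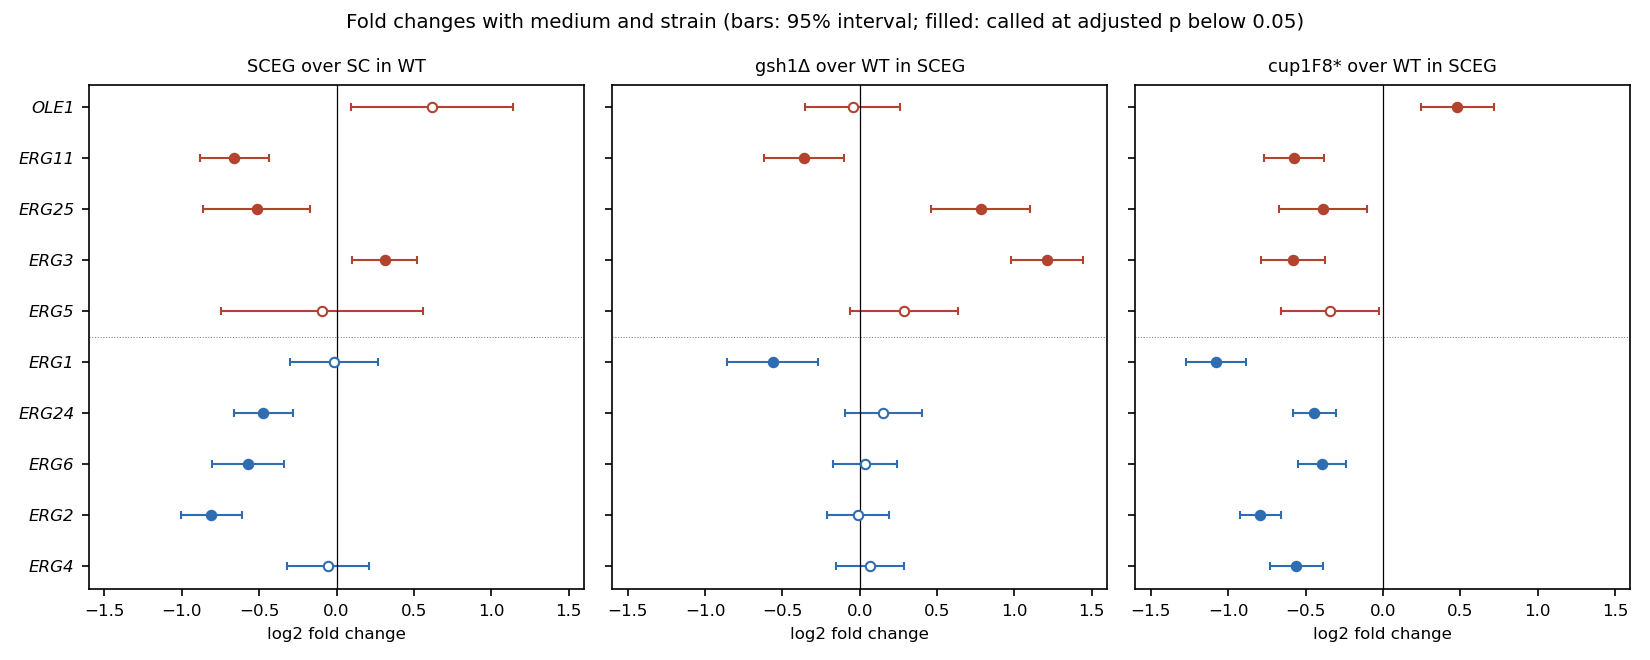
Log2 fold change (horizontal axis) of each gene for SCEG over SC in WT, gsh1Δ over WT and cup1F8* over WT, with 95% intervals, filled where called and coloured by cofactor as above. ERG3 lies at 0.31, 1.21 and -0.58 in the 3 panels, and OLE1 is the only gene above 0 that is filled in the cup1F8* panel.

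In gsh1Δ, ERG3 and ERG25 were called higher and ERG1 and ERG11 lower than in WT in SCEG. These are 4 of 10 members, where 12.5% of 5678 genes tested were higher and 12.8% lower. ERG3, the iron desaturase, had 2210, 1997 and 1930 CPM in gsh1Δ, all far above the 864, 890 and 927 CPM of WT. Its log2 fold change was 1.21 (SE 0.10, adjusted p = 2.4e-05 from edgeR), which is 2.31-fold. ERG25, the other sterol enzyme with histidine boxes, had 811, 683 and 631 CPM in gsh1Δ and 490, 420 and 337 in WT, a log2 difference of 0.78 (SE 0.14, adjusted p = 0.0031). OLE1, the remaining enzyme with histidine boxes, had 2290, 2943 and 2539 CPM against 2817, 2332 and 2944 in WT, and the groups overlapped (-0.05, 95% interval -0.35 to 0.26).

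ERG1, the epoxidase at the entry of the oxygen-using steps, had 389, 454 and 325 CPM in gsh1Δ and 505, 623 and 619 in WT. All gsh1Δ libraries were below all WT libraries, with a log2 difference of -0.56 (SE 0.13, adjusted p = 0.012). ERG11 had 564, 594 and 461 CPM in gsh1Δ and 671, 764 and 660 in WT, a smaller fall (-0.36, SE 0.12, adjusted p = 0.047). The call of ERG11 was lost in 5 of the 6 fits that left out a library, with an adjusted p of up to 0.15. ERG2 (-0.01), ERG6 (0.04), ERG4 (0.07), ERG24 (0.15) and ERG5 (0.29) overlapped WT and were not called. Of the P450 genes, ERG11 was thus called lower only with all libraries or in 1 of these fits, and ERG5 was at 0.29 (95% interval -0.06 to 0.63).

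Around them in gsh1Δ, 1 of the 5 electron donor and heme carrier genes was called, NCP1, which rose by 1.07 (SE 0.090, adjusted p = 1.9e-05) from 438 ± 19.7 to 910 ± 29.0 CPM (SD, n = 3 each). Of 12 regulators, 3 were higher, HAP1 (0.57, adjusted p = 0.0025), ROX1 (0.84) and HRD1, a ubiquitin ligase for mevalonate pathway enzymes (0.50). UPC2 (0.05), ECM22 (-0.17), MGA2 (-0.20) and SPT23 (-0.18) were not called. Of 9 fatty acid genes, 6 were lower and none higher (median -0.59, against 0.02 over all genes), with FAS1 (-0.90) and FAS2 (-0.85), the fatty acid synthase subunits, and ACC1 (-0.78). Of the 11 early sterol genes, ERG7, lanosterol synthase, was called, lower by 0.62. ERG27 was higher (0.43) and ERG28 lower (-0.65). CYC1 (-1.5) and HEM13, a heme synthesis gene induced in low oxygen (-1.07), were lower, 2 of 6 genes tested in their list. ARE1 (0.56) and YEH1, a sterol ester hydrolase (0.73), were higher, 2 of 11.

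With H3A110C in the gsh1Δ background, ERG3 returned toward the level of WT. It had 876, 1127 and 931 CPM in H3A110Cgsh1Δ and 2210, 1997 and 1930 in gsh1Δ, a log2 difference of -1.07 (SE 0.13, adjusted p = 0.012). It was the only member called, where 0.844% of 5690 genes tested were. ERG25 had 369, 549 and 429 CPM against 811, 683 and 631, without overlap, and a log2 difference of -0.66 (SE 0.17, adjusted p = 0.12). DESeq2 called ERG25 with an adjusted p of 0.0083, and a fit of all SCEG libraries with 0.0077. The other 8 members were not called, OLE1 (0.28), ERG5 (-0.21) and ERG11 (-0.24) among the iron or heme enzymes, and ERG6 (0.21), ERG2 (0.16), ERG1 (-0.12), ERG24 (-0.16) and ERG4 (-0.22). Both values of replicate 2 of H3A110Cgsh1Δ, the library that stood apart, are the highest of its group. Without it, 4 members were called, all lower, where 17.8% of genes were called. They were ERG3 (-1.19, adjusted p = 8.5e-05), ERG25 (-0.84, adjusted p = 0.0013), ERG11 (-0.45, adjusted p = 0.028) and ERG5 (-0.42, adjusted p = 0.047). OLE1, the remaining iron or heme enzyme, was not called. Across the 6 fits that left out a library, between 0 and 4 members were called, and ERG25, ERG11 and ERG5 were called in this fit only. The call of ERG3 was lost without gsh1Δ replicate 1 (adjusted p = 0.13), without gsh1Δ replicate 3 (0.076) and without H3A110Cgsh1Δ replicate 3 (0.078), while its log2 fold change stayed between -1.19 and -0.999.

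The H3A110C effect on ERG3 differed between gsh1Δ and WT by -0.90 on the log2 scale (SE 0.15, adjusted p = 0.027 from the edgeR interaction term). The call was lost in 6 of the 12 fits that left out a library (adjusted p up to 0.081), those without replicate 1 or 2 of H3A110C, 1 or 3 of gsh1Δ and 1 or 3 of H3A110Cgsh1Δ. Without replicate 2 of H3A110Cgsh1Δ it was -1.02 (adjusted p = 0.0016), where 5.07% of 5782 genes were called. ERG3 was the only member called with all libraries, where 0.365% of 5751 genes were. The differences for the other members were -0.23 for ERG25, -0.21 for ERG5, -0.15 for ERG11 and 0.45 for OLE1, and -0.16 for ERG1, -0.03 for ERG24, 0.02 for ERG4, 0.22 for ERG2 and 0.43 for ERG6. The interval for ERG25 ran from -0.72 to 0.25, so that its H3A110C effects in the 2 backgrounds, -0.66 and -0.43, were not told apart. ROX1 (-0.96, adjusted p = 0.029) and HAP1 (-0.93, adjusted p = 0.012) were lower in H3A110Cgsh1Δ than in gsh1Δ, the 2 regulators of 12 that were called, and FAS1 was higher (0.74), the only fatty acid gene called of 9. NCP1 (-0.29), UPC2 (-0.27), ECM22 (0.20), MGA2 (0.43) and SPT23 (0.20) were not called, and no gene of the other 5 lists was. Without replicate 2 of H3A110Cgsh1Δ, 3 of 11 early genes and 1 of 4 late genes were higher, among them HMG2 (0.74), ERG9 (0.45), ERG13 (0.52) and ERG28 (1.56). No donor was called of 5, 1 regulator of 12 was higher, MGA2 (0.59), and 3 were lower, UPC2 among them (-0.39). Of 11 uptake genes, 1 was higher and 2 lower, and 3 of 9 fatty acid genes and 3 of 6 heme and oxygen genes were higher.

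Compared with H3A110C, H3A110Cgsh1Δ kept a low ERG1. It had 335, 388 and 357 CPM against 585, 624 and 585, a log2 difference of -0.75 (SE 0.096, adjusted p = 0.0026), and was the only member called, where 8.62% of 5685 genes tested were. At an unadjusted p below 0.05, which 24.6% of genes had, 6 members differed. Without replicate 2 of H3A110Cgsh1Δ, 5 members were called (30.6% of genes were), with ERG11 lower (-0.72) and ERG25 (0.37), ERG6 (0.35) and OLE1 (0.52) higher. ERG3 was not called with that library (0.29, adjusted p = 0.17) or without it (0.18, adjusted p = 0.16). NCP1 was higher in H3A110Cgsh1Δ than in H3A110C (0.77, adjusted p = 0.0036), as were ERG27 (0.77), ERG13, the synthase before HMG1 (0.53), HMG1 (0.48) and ARE2, a sterol acyltransferase (0.54), and CYC1 was lower (-1.11). The remaining members were not called, ERG6 (0.44, adjusted p = 0.059), ERG25 (0.53, adjusted p = 0.059), ERG11 (-0.53, adjusted p = 0.065), OLE1 (0.39, adjusted p = 0.17), ERG2 (0.19), ERG24 (0.10), ERG4 (0.06) and ERG5 (0.06). No other gene of the lists was called, among them UPC2 (0.09), ECM22 (0.29), HAP1 (-0.28), MGA2 (0.17) and SPT23 (0.05). Without replicate 2 of H3A110Cgsh1Δ, 4 early genes of 11 were higher and 1 lower, 2 late genes of 4 were higher, 1 donor of 5 and 5 regulators of 12 were higher, 3 uptake genes of 11 were higher and 1 lower, 1 fatty acid gene of 9 was higher and 4 lower, and 2 heme and oxygen genes of 6 were higher and 1 lower. MGA2 (0.35, adjusted p = 0.020) was among the regulators called.

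**Figure D3:**
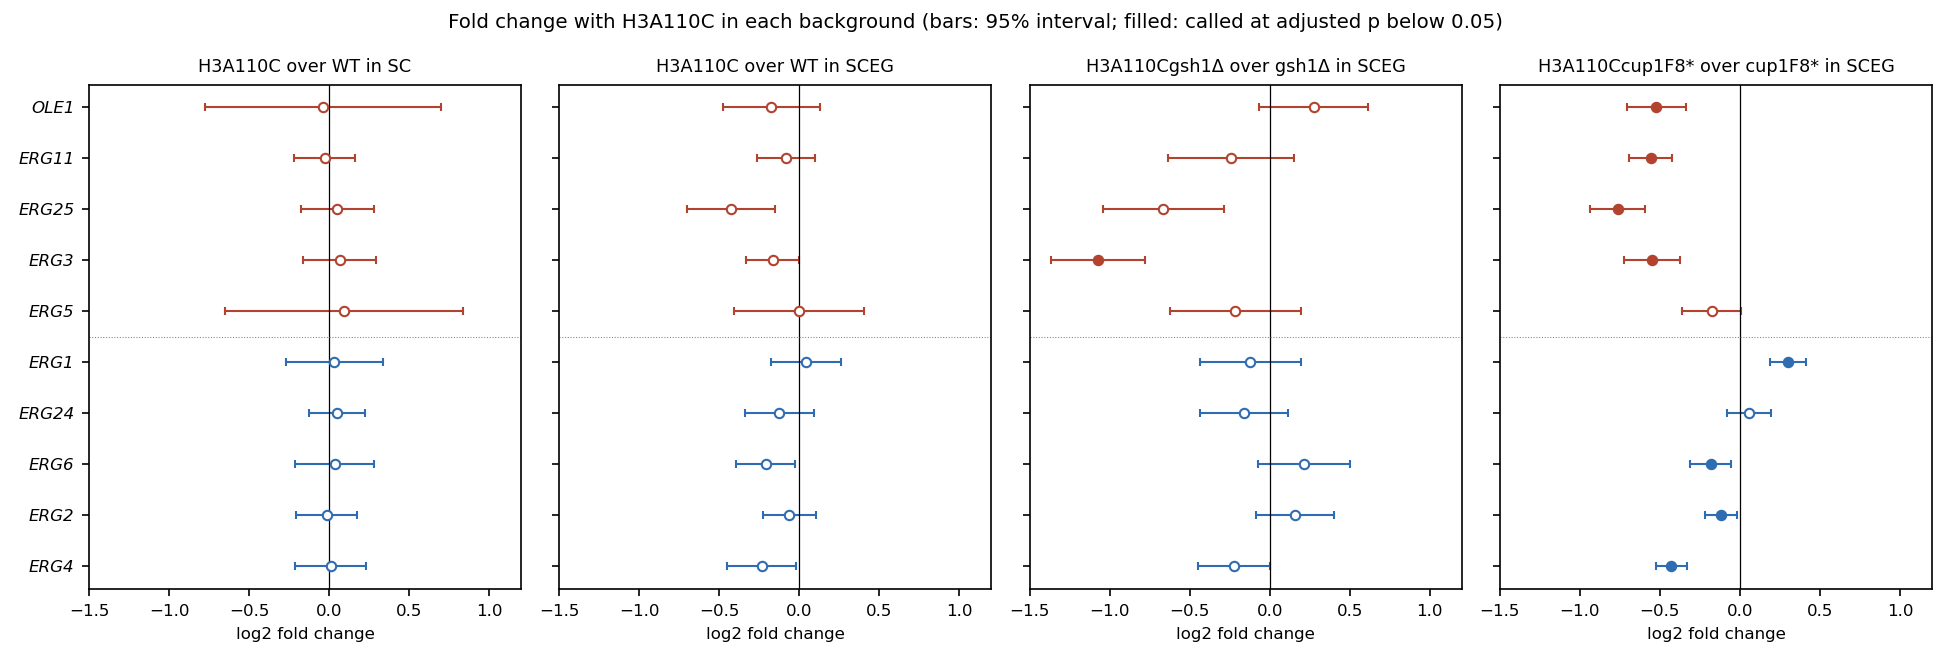
Log2 fold change (horizontal axis) with H3A110C in WT in SC, and in WT, gsh1Δ and cup1F8* in SCEG, with 95% intervals, filled where called, iron or heme enzymes in red and the others in blue. No gene is filled in the first 2 panels, ERG3 (-1.07) is filled in the third, and 4 red and 4 blue genes are filled in the fourth.

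In cup1F8*, 8 of the 9 ergosterol genes, all but ERG5, were lower than in WT, and OLE1 was higher. Of the 10 members, 8 were lower and 1 higher, where 34.8% of 5904 genes tested were lower and 34.3% higher. ERG1 fell most, with 282, 307, 270 and 280 CPM in cup1F8* against 505, 623 and 619 in WT, a log2 difference of -1.08 (SE 0.087, adjusted p = 2.3e-06 from edgeR). ERG2 had 116, 111, 114 and 105 CPM against 182, 187 and 193, a log2 difference of -0.79 (SE 0.059, adjusted p = 1.3e-06). ERG3, ERG11 and ERG4, which reduces the side chain in the last step, fell by 0.58, 0.58 and 0.56, and ERG24, ERG6 and ERG25 by 0.44, 0.39 and 0.39. ERG25 overlapped WT, and with total counts as the scale, which moved the median of all genes to 0.16 and the calls from 2024 higher and 2054 lower to 2586 and 1617, its call was lost (-0.22, adjusted p = 0.13), as it was in 4 of the 7 fits that left out a library.

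OLE1 had 4240, 3531, 3617 and 4162 CPM in cup1F8*, all above the 2817, 2332 and 2944 of WT. Its log2 fold change was 0.48 (SE 0.11, adjusted p = 0.0022). ERG5 had 129, 102, 93.3 and 104 CPM against 137, 153 and 102, and was not called (-0.34, adjusted p = 0.051), while DESeq2 called it (adjusted p = 0.046). Of 12 regulators, 9 were higher and 2 lower (median 0.49, against 0.00 over all genes), among them MGA2 (0.73, adjusted p = 5.0e-05), SPT23 (0.60, adjusted p = 0.00045), UPC2 (0.60, adjusted p = 0.00046), ECM22 (0.56, adjusted p = 0.00011) and HAP1 (0.62, adjusted p = 0.00032). HRD1 rose by 1.26 and ROX1 fell by 0.96. Of 9 fatty acid genes, 8 were lower and 1 higher (median -0.88), with the elongases ELO2 (-1.22), ELO3 (-1.11) and ELO1 (-1.07). Of 11 early sterol genes, 6 were lower and 1 higher, among them ERG7 (-1.15), MVD1 (-0.54) and ERG12 (-0.48), which act before squalene or on its epoxide. ERG28 was the 1 of 4 late genes called (0.98), and 2 of 5 electron donors were lower, among them CBR1, a cytochrome b5 reductase (-0.49). NCP1 was not called (-0.15). Of 8 heme and oxygen genes tested, 2 were lower and 3 higher, with CYC1 at -2.08, and DAN1, a low oxygen mannoprotein, and CYC7, the low oxygen cytochrome c, at 1.99 and 0.93. Of the 11 uptake, ester and export genes, 5 were lower and 4 higher, with TGL1, a sterol ester hydrolase, at 1.695, YEH1 at -1.15 and NCR1, a vacuolar sterol transporter, at 0.87.

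With H3A110C in the cup1F8* background, 4 of the 5 iron or heme enzymes and 3 of the 5 other members fell, while ERG1 rose. These are 7 members lower and 1 higher than in cup1F8*, where 25.9% of 5906 genes tested were lower and 24.6% higher. ERG25 had 202, 189, 192 and 209 CPM in H3A110Ccup1F8* and 366, 288, 298 and 363 in cup1F8*, a log2 difference of -0.76 (SE 0.078, adjusted p = 9.9e-06). ERG11 had 330, 326, 345 and 343 CPM against 527, 512, 430 and 466 (-0.56, SE 0.063, adjusted p = 2.1e-05). ERG3 had 446, 426, 390 and 463 CPM against 673, 534, 577 and 690 (-0.55, SE 0.082, adjusted p = 0.00016). The groups did not overlap for any of these 3. OLE1 had 2404, 2674, 3068 and 2919 CPM against 4240, 3531, 3617 and 4162, all below cup1F8*, with a log2 difference of -0.52 (SE 0.084, adjusted p = 0.00029). ERG5 was not called (-0.18, 95% interval -0.36 to 0.01).

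Among the other members, ERG1 had 341, 359, 361 and 374 CPM against 282, 307, 270 and 280, and rose by 0.30 (SE 0.051, adjusted p = 0.00041). ERG4 fell by 0.43 (adjusted p = 1.3e-05), and ERG6 by 0.18 (adjusted p = 0.019) with overlapping groups. The call of ERG6 was lost in the fit of all SCEG libraries (adjusted p = 0.16) and in 3 of the 8 fits that left out a library (up to 0.064). ERG2 fell by 0.12 (adjusted p = 0.048), also overlapping, and its call was lost with DESeq2 (adjusted p = 0.11), with DESeq2 size factors or total counts, without a filter, with the replicate block, in 7 of the 8 fits that left out a library and in the fit of all SCEG libraries. ERG24 was not called (0.06, 95% interval -0.08 to 0.20). UPC2 fell by 1.37 (SE 0.090, adjusted p = 3.1e-07), from 83.4 ± 9.67 to 32.9 ± 2.83 CPM (SD, n = 4 each), the largest change among the 12 regulators, of which 6 were lower and none higher. ECM22 fell by 0.41, HAP1 by 0.59, MOT3, a repressor, by 0.62 and SPT23 by 0.18, and MGA2 was not called (-0.11, adjusted p = 0.23). HMG2 (0.63), HMG1 (0.29) and ERG7 (0.27) rose, as 6 of 11 early sterol genes did, with 2 lower. Of 9 fatty acid genes, 4 were higher and none lower, with ELO1 at 0.37, ACB1 at 0.34 and FAA4, which activates fatty acids, at 0.29. ERG27 fell by 0.28, the only one of 4 late genes called. NCP1 fell by 0.24 and CYB5 by 0.45, as 3 of 5 electron donor and heme carrier genes did, and MCR1 rose by 0.36. AUS1, a sterol importer, fell by 0.68, ARE2 by 0.48 and ATF2 by 0.46, as 4 of 11 uptake genes did, with 1 higher. Of 8 heme and oxygen genes tested, 3 were higher and 2 lower, with CYC1 at 0.95, CYC7 at 0.68 and HMG2, already counted among the early sterol genes, at 0.63.

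The H3A110C effect differed between cup1F8* and WT for 2 of the 10 members, ERG11 and ERG3, both in the lower direction. Of 5954 genes tested, 962 were called in either direction, 498 higher and 464 lower (7.79%). The count of 2 is thus not read as a result about the members or their class. The difference was -0.47 for ERG11 (SE 0.10, adjusted p = 0.0066) and -0.38 for ERG3 (SE 0.12, adjusted p = 0.043). ERG11 passed the test in all 14 fits that left out a library and ERG3 in 3 of them. For ERG25 (-0.33, adjusted p = 0.15) and OLE1 (-0.34, adjusted p = 0.17) a difference of the effects was not detected with all libraries. Without replicate 1 of WT, ERG25 was called (-0.46, adjusted p = 0.043). For ERG1 the difference was 0.26 (adjusted p = 0.10), and it was called higher by DESeq2 (0.29, adjusted p = 0.044) and by edgeR without replicate 1 of WT (0.36, adjusted p = 0.014). ERG5 (-0.16), ERG4 (-0.19), ERG2 (-0.05), ERG6 (0.03) and ERG24 (0.19) were not called.

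Between SCEG and SC, the H3A110C effect did not pass the test for any member in edgeR or DESeq2 (0% of 5915 genes were called by edgeR), with 1 member, ERG25, at an unadjusted p below 0.05 (-0.48), which 1.89% of genes had. Without the letter B libraries, no member was called either (0.0171% of 5852 genes were). The differences of the others were -0.24 for ERG4 and ERG6, -0.23 for ERG3, -0.17 for ERG24, -0.13 for OLE1, -0.09 for ERG5, -0.05 for ERG11, -0.04 for ERG2 and 0.01 for ERG1.

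H3A110Ccup1F8* was lower than H3A110C in 8 members, where 33.9% of 5873 genes tested were lower. ERG11 had 330, 326, 345 and 343 CPM against 659, 648 and 665 in H3A110C, the largest fall (-0.99, SE 0.054, adjusted p = 3.7e-08). ERG3 followed (-0.91), then ERG2 (-0.79), ERG1 (-0.76), ERG4 (-0.70), ERG25 (-0.66), ERG5 (-0.46) and ERG6 (-0.31). OLE1 (0.19, adjusted p = 0.13) and ERG24 (-0.20, adjusted p = 0.060) were not called. With total counts as the scale, the median of all genes moved to 0.12, the calls moved from 2062 higher and 1989 lower to 2445 and 1601, and OLE1 was higher (0.30, adjusted p = 0.022). Of 12 regulators, 7 were higher and 3 lower, with HRD1 (1.21), MGA2 (0.63), SPT23 (0.52), ECM22 (0.47) and HAP1 (0.17) higher and ROX1 (-0.80) and UPC2 (-0.39) lower. Of 11 early sterol genes, 6 were lower and 2 higher, with ERG7 (-0.84), HMG2 (0.84) and ERG9, squalene synthase (0.60), and ERG28 was higher (0.72). Of 5 electron donors, 3 were lower, with CYB5 (-0.76), CBR1 (-0.54) and NCP1 (-0.33), and MCR1 was higher (0.39). Of 9 fatty acid genes, 8 were lower, with ELO2 (-1.17), ELO3 (-0.996) and FAS2 (-0.77). Of 11 uptake genes, 5 were higher and 4 lower, with TGL1 (1.63), NCR1 (1.12) and YEH1 (-1.25), and of 7 heme and oxygen genes tested, 3 and 2, with CYC7 (2.44) and CYC1 (-1.01). These comparisons share the H3A110C, WT, gsh1Δ or cup1F8* libraries with those above.

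The distance between the cofactor classes was taken in each library as the mean log2 CPM of the 5 iron or heme enzymes minus that of the 5 others, and it is given as a description without a test. In SC it was 0.62 ± 0.20 (SD, n = 3) in WT and 0.63 ± 0.16 in H3A110C, with the letter B library lowest in both. In SCEG it was 0.95 ± 0.091 in WT and 0.90 ± 0.077 in H3A110C. It was larger in gsh1Δ, at 1.39 ± 0.056, and in cup1F8*, at 1.32 ± 0.14 (n = 4), and no library of either strain overlapped those of WT. In gsh1Δ the mean of the iron or heme enzymes was above WT (9.63 against 9.27), with ERG3 and ERG25 called higher and ERG11 lower. That of the others was 8.24 against 8.32. In cup1F8* both means were below WT, at 9.04 for the iron or heme enzymes and 7.71 for the others. In H3A110Cgsh1Δ the distance was 1.02 ± 0.095 and in H3A110Ccup1F8* 0.89 ± 0.054, each below every library of the strain without H3A110C. The rise from WT to gsh1Δ was 0.44 and, with OLE1 left out, 0.55, whereas the rise to cup1F8* was 0.38 and 0.19. The rise from SC to SCEG was 0.33 in WT and 0.27 in H3A110C, and 0.21 and 0.17 without the SC library of letter B. From WT to H3A110C in SC the change was 0.012. It was -0.10 without the letter B library of WT and 0.11 without that of H3A110C. The change from gsh1Δ to H3A110Cgsh1Δ was -0.37, and -0.41 without replicate 2 of H3A110Cgsh1Δ. From H3A110C to H3A110Cgsh1Δ it was 0.13, and 0.081 without that replicate.

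**Figure D4:**
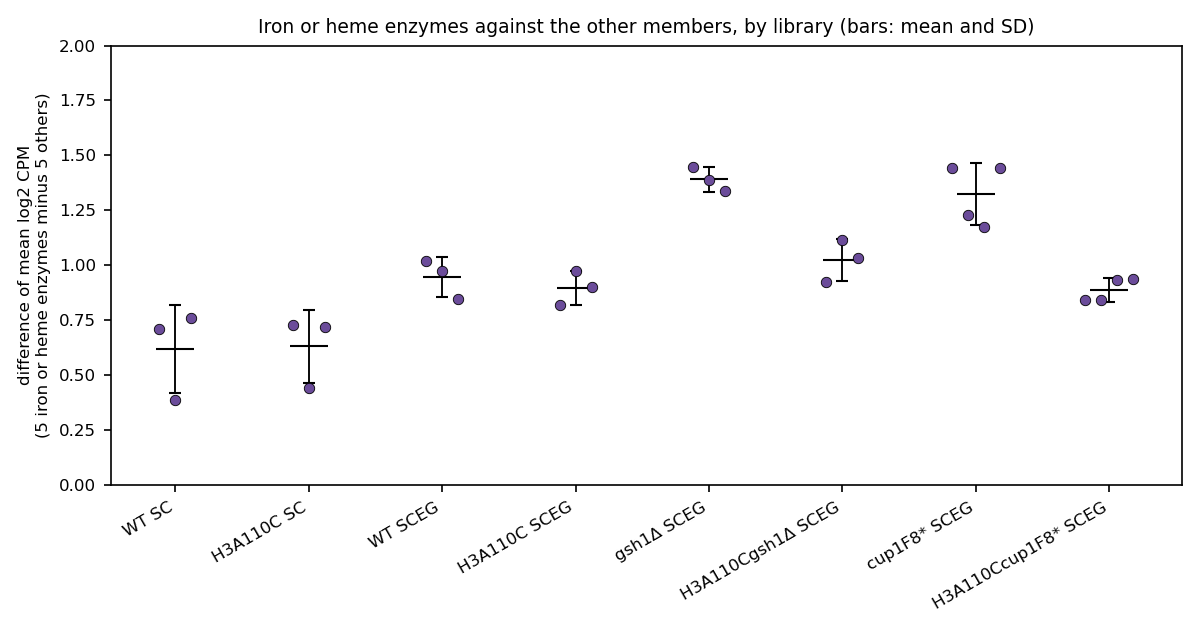
Mean log2 CPM of the 5 iron or heme enzymes minus that of the 5 other members (vertical axis), 1 point a library, with the mean and SD of each group. The gsh1Δ and cup1F8* groups lie at 1.39 and 1.32, and the same strains with H3A110C at 1.02 and 0.89.

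**Figure D5:**
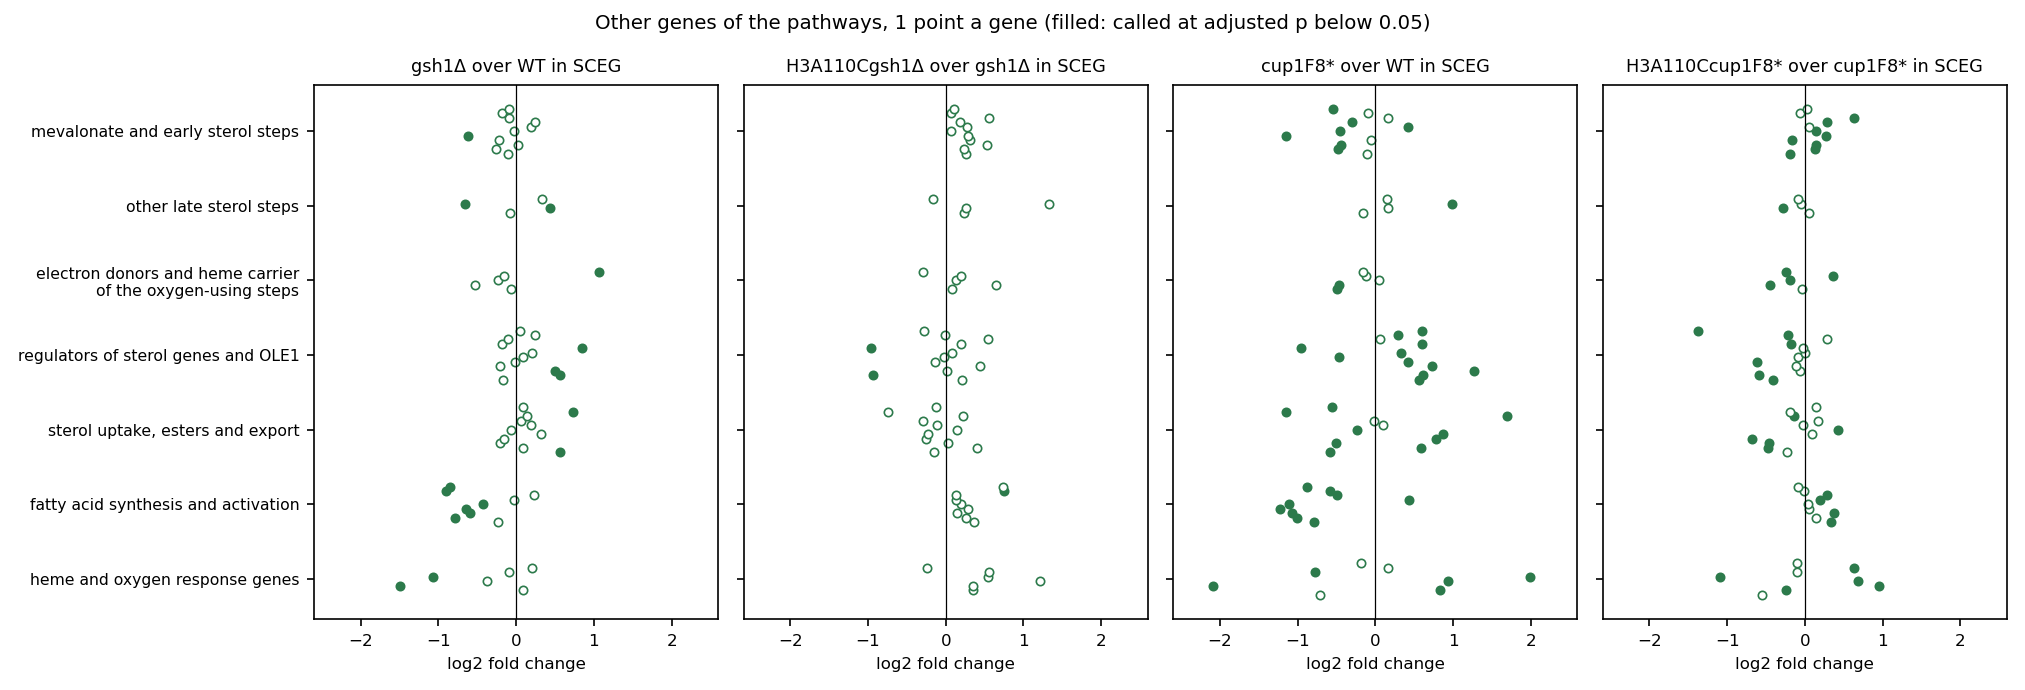
Log2 fold change (horizontal axis) of the other genes of the pathways, by list, in 4 comparisons in SCEG, 1 point a gene, filled where called. Fatty acid genes lie mostly below 0 in the gsh1Δ (6 of 9 called lower) and cup1F8* (8 of 9) panels, and UPC2 is the leftmost regulator in the last panel, at -1.37.

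Across the 26 libraries, which share strains and media and so are not independent, likeness was taken as the Pearson correlation of log2 CPM with each of 5291 genes that had a mean of at least 10 CPM. The 3 genes most like a member included a further sterol gene for 4 of them. These were ERG7 for ERG1 (0.95), ERG2 for ERG6 (0.95), ERG4 for ERG25 (0.91) and ARE1 for ERG24 (0.95). The genes most like ERG2 were EFT1 and TEF1, which encode translation elongation factors, and GAR1, for ribosomal RNA modification (0.99 each). ERG3 was most like TAF7 (0.89), ERG11 like LRP1 (0.96), ERG4 like RBD2 (0.95), ERG5 like YGR079W (0.93) and OLE1 like SSK2 (0.91). EFT1 and TEF1 have near-identical copies, so that their counts are uncertain. Between members, OLE1 was negatively correlated with every other member, from -0.13 with ERG3 to -0.75 with ERG24. Correlations among the other iron or heme enzymes ran from 0.24 (ERG3 with ERG11) to 0.75 (ERG3 with ERG25). Across the classes, ERG2 and ERG11 were at 0.88. The iron or heme class thus did not vary as 1 set.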

How the data were processed

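Poly(A) RNA from whole yeast cells was sequenced in 26 libraries. The authors aligned stranded reads to R64-1-1 (sacCer3) with HISAT2. Raw counts from featureCounts were deposited by the authors for 6692 open reading frames. A second deposited table, normalized with DESeq2, was not used. Groups came from the sample labels. Columns of SC carry letters, whose libraries deviated together (correlations 0.62 to 0.89 across 5737 genes), and a block on them changed no member's call.

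Genes were compared by pairs of groups in edgeR 4.0.16 (R 4.3.3, limma 3.58.1), with TMM normalization, filterByExpr and the quasi-likelihood test, with calls at a Benjamini-Hochberg adjusted p under 0.05 over all genes tested. Interaction terms used 4 groups. Correlations and class means used log2 CPM with a prior count of 2. The study names 4 independent experiments, and 3 libraries were present here for 6 groups. The p-values set a difference between groups against the spread between these libraries, estimated with the help of all genes. The labels do not say which experiment a library came from. Alternatives were DESeq2 1.42.0, other normalizations and filters, a replicate block, all SCEG libraries in one fit and each library left out. Leaving out the SC libraries of letter B, and counting the lists without them or without replicate 2 of H3A110Cgsh1Δ, were chosen after seeing the data.

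All 10 members were named in every comparison. From each of 7 lists, the up to 3 genes with the largest change among called genes without overlap were named, with UPC2, ECM22, HAP1, MGA2, SPT23 and NCP1. Members and lists were chosen with earlier results of these data known. Positions and sequences are from RefSeq R64, Python 3.11.15 and numpy 2.4.6, and plots from matplotlib 3.10.9. In simulated counts, edgeR recovered 100% of planted 2-fold changes for gsh1Δ against WT over 5678 genes and 80% for the gsh1Δ interaction over 5751. Every simulated gene had the same spread between libraries (dispersion 0.02), no library stood apart and no planted change was under 2-fold. The recovery thus checks the fitting and does not give the sensitivity for the smaller changes and uneven libraries of these data.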

Additional observations from a re-analysis of the deposited data

Results flagged for a closer look

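The effect of H3A110C differed between backgrounds for 3 results, each by the interaction term of edgeR. ERG3 was lowered more by H3A110C in gsh1Δ than in WT, by -0.90 on the log2 scale (adjusted p = 0.027), with -1.07 in gsh1Δ and -0.17 in WT, and all 3 H3A110Cgsh1Δ libraries were below all 3 gsh1Δ libraries. This call was lost in 6 of the 12 fits that left out a library, with a highest adjusted p of 0.081. ERG11 was lowered more in cup1F8* than in WT, by -0.47 (adjusted p = 0.0066), with -0.56 in cup1F8* and -0.08 in WT, and all 4 H3A110Ccup1F8* libraries were below all 4 cup1F8* libraries. ERG3 was lowered more in cup1F8* than in WT, by -0.38 (adjusted p = 0.043), with -0.55 in cup1F8*, and its call was lost in 11 of the 14 fits that left out a library. In the groups of 4 libraries, no member had a library far from the other 3 among the 20 sets of values examined.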

How the results depend on the processing

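Counts of members called moved by over 1.5 times in the following cases. With the replicate block, 1 member was called between H3A110C and WT in SCEG, ERG25 (-0.41, adjusted p = 0.040), in place of 0. The block called 98 of 5671 genes there, against 2 in the main fit. SCEG libraries with the same number did not deviate together in every pair (correlations 0.056 to 0.46 for these strains), so that the numbers were not taken as pairs. Between H3A110Cgsh1Δ and gsh1Δ, DESeq2 and the fit of all SCEG libraries called 2 members in place of 1. Of all genes, they called 210 of 6322 and 536 of 5874 in that order, against 48 of 5690 in the main fit. Between H3A110Cgsh1Δ and H3A110C, DESeq2 called 4, total counts 2, the block 2 and the fit of all SCEG libraries 7, in place of 1. Of all genes, they called 670 of 6326, 481 of 5685, 691 of 5685 and 1367 of 5874 in that order. The main fit called 490 of 5685. For the difference of the H3A110C effect between cup1F8* and WT, DESeq2 size factors called 1 in place of 2. Of 5954 genes they called 987, against 962 in the main fit. With a library left out, between 2 and 4 members were called in gsh1Δ against WT, 0 and 4 in H3A110Cgsh1Δ against gsh1Δ, 1 and 5 in H3A110Cgsh1Δ against H3A110C, 0 and 1 for the gsh1Δ interaction and 1 and 3 for the cup1F8* interaction. The share of all genes called moved too when replicate 2 of H3A110Cgsh1Δ was left out. It was then 17.8% against gsh1Δ (0.844% with all libraries) and 30.6% against H3A110C (8.62%). These counts are thus not read as a result about the members. Without OLE1, the change of the class distance was 0.15 for SCEG against SC in WT (0.33 with it), 0.073 in H3A110C (0.27), 0.55 for gsh1Δ against WT (0.44), -0.53 for H3A110Cgsh1Δ against gsh1Δ (-0.37), 0.19 for cup1F8* against WT (0.38) and -0.20 for H3A110Ccup1F8* against H3A110C (-0.009). Apart from the construction of these alternatives, the cause was not tested. No called value changed sign under any alternative run.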
